A study of Homo sapiens with 6 samples.

Results

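Iron storage, uptake and regulation were followed through 10 genes, FTH1, FTL, NCOA4, TFRC, SLC11A2, SLC39A14, STEAP3, IREB2, ACO1 and HMOX1, taken by gene name from a table of 29435 rows. Each name had 1 row, and all 10 passed the expression filter. The cells are labelled HepG2, a line from a human liver tumour, and their RNA was sequenced. SsA libraries (n = 3) came from cells given saikosaponin A, a triterpenoid saponin, at 20 µM over 4 h, and DMSO libraries (n = 3) from cells given the vehicle over the same 4 h. All were of 1 cell line in the same serum-containing medium, with no genetic change named. Whether replicates 1, 2 and 3 were separate cultures is not in the labels, so each p-value reflects the spread between these libraries, which may be technical. The question was which of these transcripts differed between SsA and DMSO.

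Cells take up iron mostly as transferrin bound to the transferrin receptor, reduce it in endosomes, pump it into the cytosol and store what is not used inside ferritin, a shell of heavy (FTH1) and light (FTL) chains. The iron regulatory proteins, encoded by ACO1 (IRP1) and IREB2 (IRP2), bind hairpins called iron-responsive elements (IREs) when iron is low. Binding in the 5′ UTR of ferritin mRNAs blocks their translation, and binding in the 3′ UTR of TFRC mRNA protects it from decay. Ferritin protein is thus set largely by translation, which mRNA levels do not show. Liver cells are a main store of body iron.

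Sequences of the IRE form were found in 3 of the 10 genes, and they are shown because this control of ferritin and TFRC mRNAs runs through such hairpins. The annotated UTRs of GENCODE 29 transcripts (GRCh38) were searched on the transcript strand for CNNNNNCAGTGN followed by 5 bases that pair, G-U pairs allowed, with the 5 bases before the loop. Capitals mark the 6-base loop. The FTH1 site is in the 5′ UTR at chr11:61967574-61967603 (minus strand) and the FTL site in the 5′ UTR at chr19:48965334-48965363 (plus strand). The 4 TFRC sites are in the 3′ UTR on the minus strand, at chr3:196050979-196051008, chr3:196050575-196050604, chr3:196050510-196050539 and chr3:196050463-196050492, numbered in that order.
FTH1 5′ UTR: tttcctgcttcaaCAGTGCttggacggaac
FTL 5′ UTR: tctcttgcttcaaCAGTGTttggacggaac
TFRC 3′ UTR site 1: taattatcggaagCAGTGCcttccataatt
TFRC 3′ UTR site 2: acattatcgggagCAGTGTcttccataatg
TFRC 3′ UTR site 3: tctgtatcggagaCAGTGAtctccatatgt
TFRC 3′ UTR site 4: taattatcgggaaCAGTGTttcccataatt
Of 10020 tested genes with an annotated UTR, 128 (1.28%) held a match. The other 7 iron genes held none, which says only that no stretch of their annotated UTRs met both the letters and the pairing rule. A hairpin with a bulge or mismatch in those 5 pairs was not searched for.

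Of these 10 genes in SsA against DMSO, 1 was higher (FTL), 2 were lower (STEAP3 and IREB2) and 7 did not pass. The test was edgeR's quasi-likelihood test, with a threshold of 0.05 on the Benjamini-Hochberg adjusted p. Over all tested rows 53.8% passed, 25.9% as higher and 27.9% as lower, so the 3 of 10 iron genes (30%) were below the background share. The groups did not overlap for the same 3 genes, against 62.8% of all tested rows. In 8 of the 10 the log2 fold change was within 0.3 of 0, and the median over the 10 was 0.06, against 0.03 over all tested rows. A correction for transcript length, which takes each library's trend of counts on length out of the fit, ended all 3 calls, and with it TFRC, SLC11A2 and ACO1 passed as higher, where 35.1% of all tested rows passed, 19.5% as higher and 15.6% as lower. Values per library are CPM, the counts after TMM scaling of the library sizes, and cannot tell fewer cells of a kind from less RNA per cell.

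**Figure D1:**
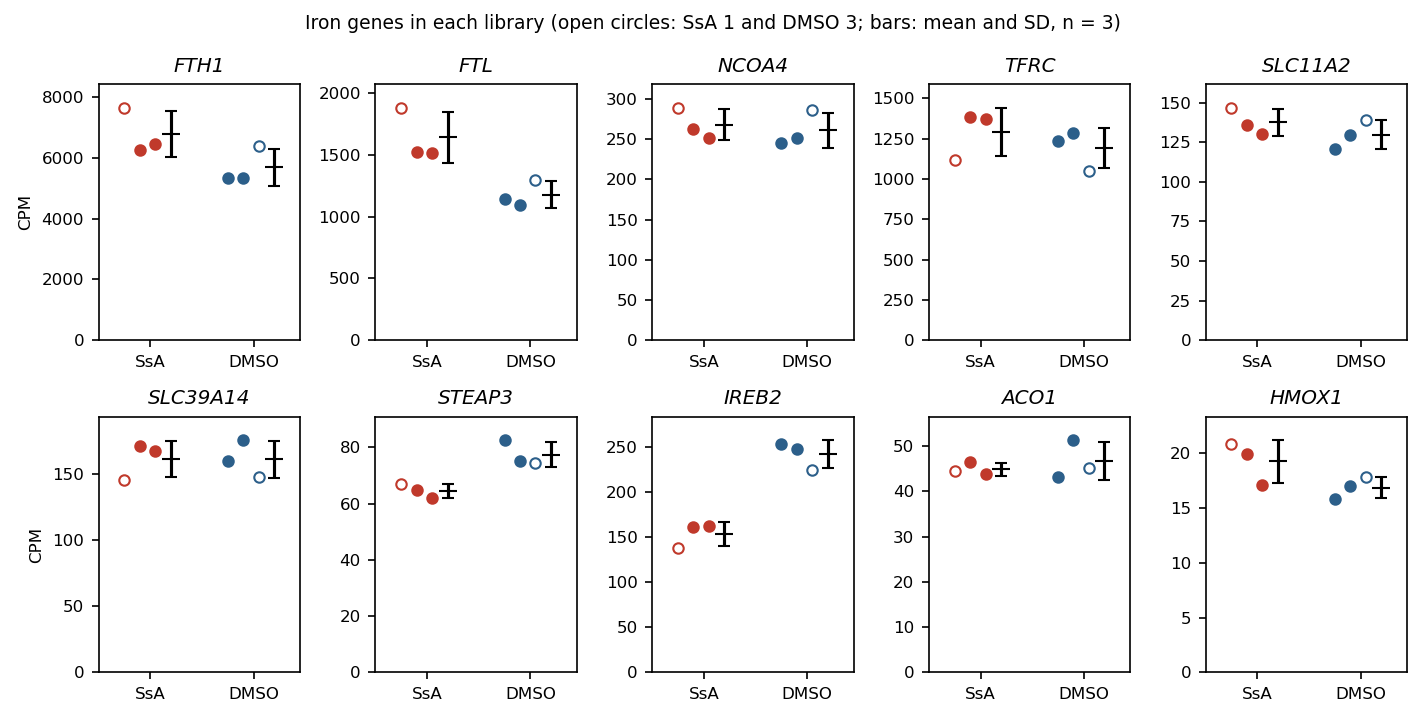
CPM of the 10 iron genes in each library (points), with the mean and SD of 3 libraries per group (bars); open circles are SsA 1 and DMSO 3, the libraries of highest mitochondrial share. FTL is higher in every SsA library and STEAP3 and IREB2 are lower in every SsA library, while the other 7 genes overlap between the groups.

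The libraries held 57768359 to 74912492 counts. Mitochondrially encoded genes took 18.8% of the counts in SsA 1 and 14.9% in DMSO 3, against 6.19 to 8.28% in the other 4 libraries, so log2 differences are also given for SsA 1 over DMSO 3 and for SsA 2 and 3 over DMSO 1 and 2. The labelled liver origin was checked on 9 of 19 listed hepatocyte marker genes. The other 10, ALB and AFP among them, had no row, so their level could not be read. All 29435 rows of the table held a count in at least 1 library, so a gene without any count had no row. Whether these 10 lacked a row for that reason was not tested. The mean FPKM was under 0.1 for all 9, which goes against the label, so the cells are called HepG2 only as the labels name them. Their summed FPKM was 0.0184 to 0.0847 in SsA libraries and 0.0663 to 0.0852 in DMSO libraries. Transferrin (TF) and hemopexin (HPX), which carry iron and heme in plasma, were among these 9. Keratin genes KRT8 and KRT18 were the epithelial markers above 1 FPKM (2 of 5), while EPCAM (0.0363), CDH1 (0.0378) and KRT19 (0.0979) were under 0.1. Markers of fibroblasts and stellate cells reached a mean of 1 FPKM in 4 of 6 genes, COL1A1, COL3A1, PDGFRB and ACTA2. The summed FPKM of the 6 was 29.1 to 35.6 in SsA libraries and 34.4 to 45.5 in DMSO libraries. For leukocytes 1 of 2 genes reached a mean of 1 FPKM (sums of 0.904 to 2.86 in SsA and 1.33 to 4.34 in DMSO). For endothelium 0 of 3 did, and the sums, 0.457 to 0.485 in SsA and 0.831 to 0.922 in DMSO, did not overlap; the part of these markers in the results was not tested.

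Ferritin mRNAs were by far the most abundant of the set, and the light chain was higher in SsA while the heavy chain did not pass, although both were below 0 with the length correction and the heavy chain also on the TPM scale (-0.11). FTH1 (chromosome 11, 61959718 to 61967634, minus strand, GRCh38) encodes the heavy chain, which oxidises iron for storage. Its level was 7654, 6257 and 6445 CPM in SsA 1, 2 and 3, and 5355, 5327 and 6392 CPM in DMSO 1, 2 and 3. The groups overlapped through DMSO 3, which lay above SsA 2 and far above the other DMSO libraries. The mean was 6786 ± 758 CPM in SsA and 5691 ± 607 CPM in DMSO (SD, n = 3 each), with a log2 fold change of 0.25 ± 0.13 (SE; adjusted p = 0.137 by edgeR). FTH1 took 0.677%, 0.609% and 0.624% of all counts in SsA 1, 2 and 3, and 0.578%, 0.572% and 0.620% in DMSO 1, 2 and 3. Within the high-mitochondrial pair the log2 difference was 0.26 and among the other 4 libraries 0.25, so its size was alike in both. In an edgeR fit to those 4 libraries alone FTH1 passed (0.22, adjusted p = 7.37e-05), as it did with a term for the mitochondrial share in all 6 (0.19, adjusted p = 2.53e-04). Of all tested rows 67.8% passed in the fit to 4 libraries and 71.5% with that term.

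FTL (chromosome 19, 48965309 to 48966879, plus strand) encodes the light chain, which helps form the iron core. It had 1880, 1520 and 1517 CPM in SsA 1, 2 and 3, and 1141, 1091 and 1297 CPM in DMSO 1, 2 and 3. Every SsA library was above every DMSO library, and SsA 1 was the highest. FTL was 1.39-fold higher, a log2 fold change of 0.48 ± 0.12 (SE; adjusted p = 0.0126 by edgeR), with 0.54 in the high-mitochondrial pair and 0.44 among the other 4 libraries. The call was lost without DMSO 1 (adjusted p = 0.0546), without DMSO 2 (0.0536), on TPM (0.11, limma adjusted p = 0.747) and with the length correction (-0.13, adjusted p = 0.522).

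The ratio of heavy to light chain counts was lower in every SsA library. FTH1 counts per FTL count were 4.07, 4.12 and 4.25 in SsA 1, 2 and 3, and 4.69, 4.88 and 4.93 in DMSO 1, 2 and 3. The mean was 4.15 ± 0.0912 in SsA and 4.83 ± 0.125 in DMSO (SD, n = 3 each; fold 0.858). A two-sided exact permutation test gave p = 0.1, the smallest that 20 groupings of 3 and 3 allow. The log2 fold changes of both genes lay closer together with the length correction, at -0.19 for FTH1 and -0.13 for FTL.

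Ferritin genes have many processed pseudogenes, and the sources used here do not say how shared reads were assigned. The table held 20 such rows, 16 named for FTH1 and 4 for FTL, of which 10 were tested. FTH1P2 and FTH1P8 had the highest mean counts. FTH1P2 had 1185, 1199 and 1277 counts in SsA 1, 2 and 3 and 1016, 1017 and 1131 in DMSO 1, 2 and 3 (log2 fold change 0.41 ± 0.20 SE, edgeR adjusted p = 0.122). FTH1P8 had 729, 1191 and 1120 counts in SsA 1, 2 and 3 and 847, 981 and 627 in DMSO 1, 2 and 3 (0.53 ± 0.13, adjusted p = 0.0114). All FTH1 pseudogene rows together came to 0.786 to 1.07 counts per 100 FTH1 counts, and those of FTL to at most 0.126 per 100 FTL counts. With these counts added to their parent genes, FTH1 had a log2 fold change of 0.26 (adjusted p = 0.132) and FTL of 0.48 (0.0125).

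NCOA4 (chromosome 10, 46005088 to 46030714, minus strand), the receptor that delivers ferritin to autophagy so that its iron is released, did not pass. It had 289, 262 and 252 CPM in SsA 1, 2 and 3, and 246, 251 and 286 CPM in DMSO 1, 2 and 3. The groups overlapped over most of their range, at a log2 fold change of 0.04 ± 0.09 (SE; adjusted p = 0.732 by edgeR).

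BEST1, which encodes a chloride channel of the retinal pigment epithelium, lies on the opposite strand from FTH1 (chromosome 11, 61950063 to 61964461, plus strand) and its counts differed far more between libraries than those of FTH1. It had 5330, 20600 and 19457 counts in SsA 1, 2 and 3, and 304, 470 and 2983 counts in DMSO 1, 2 and 3. Per 100 FTH1 counts this was 1.33, 4.86 and 4.82 in SsA 1, 2 and 3, and 0.0729, 0.110 and 0.833 in DMSO 1, 2 and 3. All SsA libraries were above all DMSO libraries, and the values nearest each other were those of SsA 1 and DMSO 3. The log2 fold change of BEST1 was 3.52 with an SE of 1.05 (edgeR adjusted p = 0.0259). The size depended on the libraries, at 0.94 for SsA 1 over DMSO 3, 5.98 among the other 4, and 5.59 in the fit without DMSO 3. The call was lost without DMSO 1 (adjusted p = 0.0517), DMSO 2 (0.0611), SsA 2 (0.0665) or SsA 3 (0.0665). With a term for the mitochondrial share BEST1 was at 3.92 (edgeR adjusted p = 0.00356), and with the length correction added at 4.24 (0.00238). An edgeR fit to the 4 libraries of low share gave 5.95 (adjusted p = 4.57e-08). The cause of these differences in size was not tested.

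FTH1 and BEST1 counts differed between libraries by unlike amounts. SsA 2 had 424005 FTH1 counts and 20600 BEST1 counts, against 428697 FTH1 counts and 470 BEST1 counts in DMSO 2. After TMM scaling both genes were higher in SsA 2 than in DMSO 2. FTH1 was at 6257 against 5327 CPM and BEST1 at 304 against 5.84 CPM. Of the 1229 bases of the longest FTH1 transcript, 880 (71.6%) lie in an exon of some BEST1 transcript of GENCODE 29, but 177 (14.4%) lie in one within the deposited BEST1 row, which ends inside FTH1. The library protocol in the labels marks strand, but no source used here states the strand setting of the counting, so reads of both genes cannot be told apart where they overlap. With the counts of both genes summed, the log2 fold change was 0.30 (edgeR adjusted p = 0.0825), against 0.25 for FTH1 alone.

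**Figure D2:**
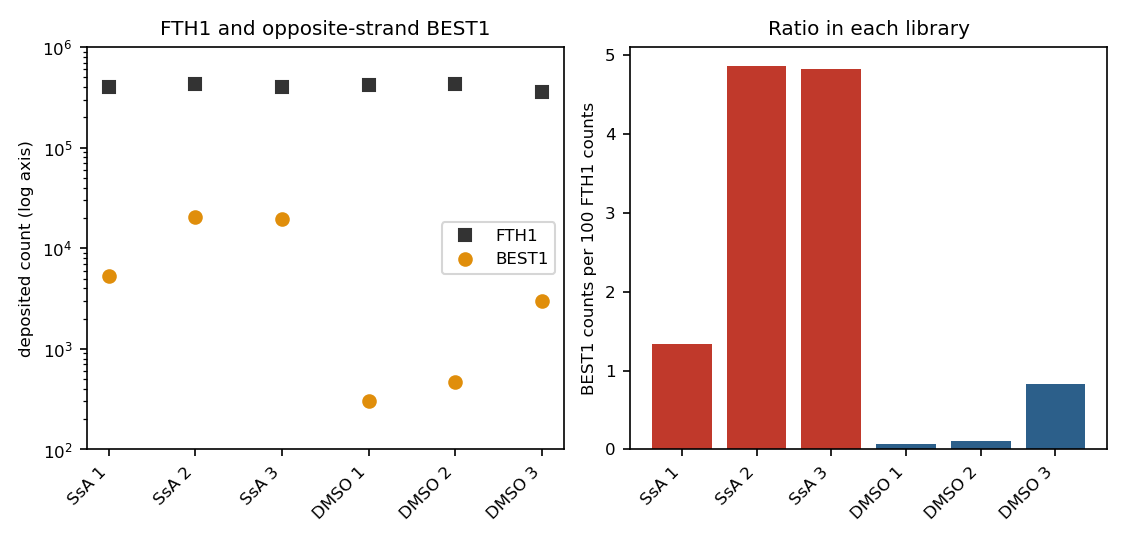
Left, deposited counts of FTH1 (squares) and of the opposite-strand gene BEST1 (circles) in each library on a log axis; right, BEST1 counts per 100 FTH1 counts. FTH1 stays between 358021 and 428697 counts while BEST1 runs from 304 counts in DMSO 1 to 20600 counts in SsA 2.

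Among the uptake genes STEAP3 fell, and TFRC, SLC11A2 and SLC39A14 did not pass and had values below 0 on the FPKM scale (-0.05, -0.07 and -0.15). These calls turned over with the length correction, and TFRC (0.37, edgeR adjusted p = 0.0450) and SLC11A2 (0.26, 0.0334) passed as higher while STEAP3 did not pass. TFRC (chromosome 3, 196027183 to 196082096, minus strand), the transferrin receptor whose mRNA carries the 4 hairpins above, had 1117, 1384 and 1371 CPM in SsA 1, 2 and 3, and 1238, 1286 and 1051 CPM in DMSO 1, 2 and 3. SsA 1 and DMSO 3 were the lowest of their groups, and the groups overlapped. Its log2 fold change was 0.12 ± 0.12 (SE; adjusted p = 0.440 by edgeR), with 0.09 in the high-mitochondrial pair and 0.13 among the other 4 libraries. With a term for the mitochondrial share TFRC passed as higher (0.18, adjusted p = 3.71e-04).

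STEAP3 (chromosome 2, 119223831 to 119265652, plus strand) encodes the endosomal reductase that converts transferrin-delivered iron to its ferrous form. It had 67.0, 64.8 and 61.9 CPM in SsA 1, 2 and 3, and 82.6, 75.3 and 74.4 CPM in DMSO 1, 2 and 3. The SsA libraries were all below the DMSO libraries, by a small margin. STEAP3 fell by 0.26 ± 0.07 in log2 units (SE; adjusted p = 0.0166 by edgeR), with -0.15 in the high-mitochondrial pair and -0.32 among the other 4 libraries. The call was lost without DMSO 1 (adjusted p = 0.0733), SsA 2 (0.0550) or SsA 3 (0.0665), with no filter on low values (0.0925), on TPM (limma adjusted p = 0.111), with the length correction (-0.10, adjusted p = 0.327) and with that and the mitochondrial term together (-0.10, 0.179). STEAP3-AS1, on the opposite strand and sharing 500 exonic bases (11% of the exonic bases of STEAP3), had 0, 21 and 4 counts in SsA 1, 2 and 3, and 39, 52 and 21 counts in DMSO 1, 2 and 3, and was not tested.

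SLC11A2 (DMT1; chromosome 12, 50979401 to 51028566, minus strand) moves ferrous iron across the endosomal membrane. It had 147, 136 and 130 CPM in SsA 1, 2 and 3, and 121, 130 and 139 CPM in DMSO 1, 2 and 3 (log2 fold change 0.08 ± 0.08 SE, edgeR adjusted p = 0.388). SLC39A14 (ZIP14; chromosome 8, 22367249 to 22434129, plus strand) takes up iron that is not bound to transferrin, a main route in liver. Its level was 145, 171 and 167 CPM in SsA 1, 2 and 3, and 160, 176 and 148 CPM in DMSO 1, 2 and 3, with a log2 fold change of 0.00 ± 0.09 (adjusted p = 0.992). The groups overlapped for both genes, over most of the range for SLC39A14 and from 130 to 139 CPM for SLC11A2. SLC39A14 was at 0.21 (adjusted p = 0.123) with the length correction.

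Of the 2 iron regulatory protein genes, IREB2 fell and ACO1 did not pass, but with the length correction IREB2 did not pass (-0.29, edgeR adjusted p = 0.0506) and ACO1 was higher (0.39, 0.0134). IREB2 (chromosome 15, 78437431 to 78498209, plus strand), whose protein IRP2 is removed by a ubiquitin ligase when iron is plentiful, had 138, 161 and 163 CPM in SsA 1, 2 and 3, and 254, 249 and 225 CPM in DMSO 1, 2 and 3. Every SsA library was far below every DMSO library. IREB2 fell by 0.66 ± 0.09 in log2 units, a fold of 0.635 (SE; adjusted p = 0.00105 by edgeR), with -0.70 in the high-mitochondrial pair and -0.64 among the other 4 libraries. It passed in all 6 fits that left out 1 library, at -0.73 to -0.58.

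ACO1 (chromosome 9, 32384603 to 32450836, plus strand) encodes IRP1, which works as cytosolic aconitase when it holds an iron-sulfur cluster. It had 44.4, 46.4 and 43.8 CPM in SsA 1, 2 and 3, and 43.3, 51.4 and 45.2 CPM in DMSO 1, 2 and 3. The groups overlapped, at a log2 fold change of -0.06 ± 0.08 (SE; adjusted p = 0.592 by edgeR). IREB2 counts per ACO1 count were 3.11, 3.47 and 3.71 in SsA 1, 2 and 3, and 5.87, 4.84 and 4.97 in DMSO 1, 2 and 3. The ratios did not overlap (fold 0.657), and a two-sided exact permutation test gave p = 0.1, again the smallest possible. The longest annotated transcripts are long, at 6354 nt for IREB2 and 7466 nt for ACO1. In DMSO 1, IREB2 had 19797 counts at 22.4 FPKM and ACO1 had 3373 counts at 5.46 FPKM. ACO1 thus had fewer counts per FPKM, and the length behind the deposited FPKM was shorter for ACO1 than for IREB2. The length correction and the length groups used 7466 nt for ACO1, and its value with another length was not tested.

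HMOX1 (chromosome 22, 35380361 to 35390293, plus strand) encodes heme oxygenase 1, which releases iron from heme and is a common marker of oxidative and heme stress. It had 20.8, 19.9 and 17.1 CPM in SsA 1, 2 and 3, and 15.9, 16.97 and 17.8 CPM in DMSO 1, 2 and 3. DMSO 3 lay above SsA 3, so the groups overlapped. Its log2 fold change was 0.19 ± 0.10 (SE; adjusted p = 0.159 by edgeR). For SsA 1 over DMSO 3 the log2 difference was 0.23 for HMOX1, 0.01 for NCOA4, 0.08 for SLC11A2, -0.03 for SLC39A14 and -0.03 for ACO1. Among the other 4 libraries it was 0.17 for HMOX1, 0.05 for NCOA4, 0.09 for SLC11A2, 0.01 for SLC39A14 and -0.07 for ACO1.

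Levels were compared between genes on the deposited FPKM scale, which the authors divided by gene length. In SsA the mean FPKM was 2734 for FTH1, 1518 for FTL, 135 for TFRC, 53.1 for NCOA4 and 18.9 for SLC39A14, and in DMSO it was 2566 for FTH1, 1222 for FTL, 140 for TFRC, 57.9 for NCOA4 and 21.2 for SLC39A14. FTH1 and FTL ranked 13 and 19 among all rows by their mean in SsA. Below these, IREB2, STEAP3 and SLC11A2 had 11.6, 11.5 and 11.2 FPKM in SsA, where their libraries overlapped, and 20.5, 15.5 and 11.9 FPKM in DMSO, where SLC11A2 was below the other 2 in every library and IREB2 overlapped with SLC39A14 and STEAP3. HMOX1 and ACO1 were lowest, at 6.78 and 4.82 FPKM in SsA, without overlap, and 6.65 and 5.62 FPKM in DMSO, with overlap.

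The FPKM scale also shifted some groups apart. FTH1 had 2865, 2645 and 2691 FPKM in SsA 1, 2 and 3, and 2545, 2538 and 2616 FPKM in DMSO 1, 2 and 3, with no overlap. NCOA4 had 53.2, 54.4 and 51.7 FPKM in SsA 1, 2 and 3, and 57.3, 58.7 and 57.5 FPKM in DMSO 1, 2 and 3, lower in every SsA library. Neither passed limma on log2(FPKM + 1), with log2 fold changes of 0.09 (adjusted p = 0.330) for FTH1 and -0.12 (0.177) for NCOA4. On that scale the median over all tested rows was -0.11, and on TPM made from it -0.31. FTL was then 0.31 (limma adjusted p = 0.0162) on FPKM and 0.11 (0.747) on TPM, and IREB2 was -0.77 (0.00741) on FPKM and -1.001 (0.0347) on TPM.

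Over all genes log2 fold changes were lower for longer transcripts, and the iron genes are set beside genes of like length. Across 10027 protein-coding genes the Spearman correlation of log2 fold change with the length of the longest annotated transcript was -0.72, a description across genes that share libraries. The genes were divided by length into 10 groups of equal size, group 1 the shortest. In group 1, which holds FTH1 and FTL, the median was 0.64 with quartiles of 0.44 and 0.82. FTL (0.48) lay between these quartiles and FTH1 (0.25) below the lower one. HMOX1 (0.19) was below the lower quartile of group 2, at 0.24. In group 9, with quartiles of -0.73 and -0.18, IREB2 (-0.66) lay inside and ACO1 (-0.06) above. TFRC (0.12) was above the upper quartile of group 8, at -0.04, and SLC11A2 (0.08) above that of group 7, at 0.05, which SLC39A14 (0.00) and STEAP3 (-0.26) did not reach. NCOA4 (0.04) lay between the quartiles of group 5, -0.21 and 0.19.

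**Figure D3:**
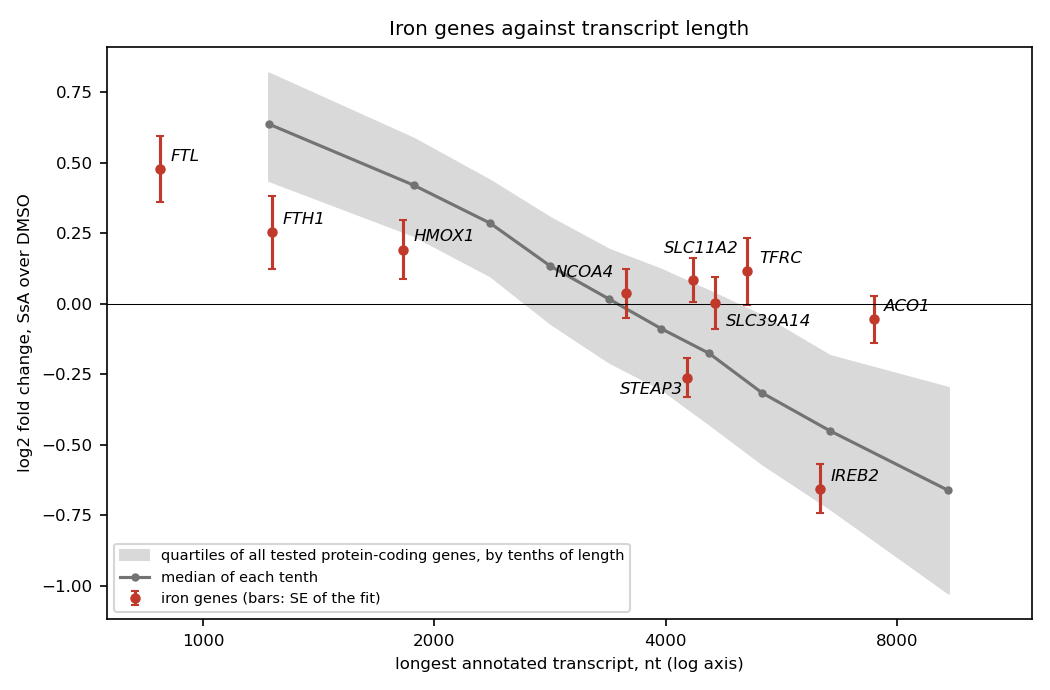
Log2 fold change of SsA over DMSO for the 10 iron genes (red points, bars are SE) against the length of the longest annotated transcript on a log axis. The median (line) and quartiles (grey band) are of all tested protein-coding genes in 10 groups of length. FTL, NCOA4, STEAP3, SLC39A14 and IREB2 lie between the quartiles of their groups, FTH1 and HMOX1 below them, and SLC11A2, TFRC and ACO1 above them.

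With the per-library length trend taken out, 3 iron genes passed, none of them among the 3 called without it. These were TFRC, SLC11A2 and ACO1, with the values given above, and none was lower. FTH1 was then at -0.19 (edgeR adjusted p = 0.318), NCOA4 at 0.11 (0.340) and HMOX1 at -0.06 (0.722). With the length correction and a term for the mitochondrial share together, the uptake genes TFRC (0.45, 1.05e-06), SLC11A2 (0.23, 0.00214) and SLC39A14 (0.26, 8.82e-04) and ACO1 (0.41, 6.14e-04) were higher. The ferritin genes FTH1 (-0.28, 3.07e-06) and FTL (-0.23, 8.22e-05) and IREB2 (-0.24, 4.34e-04) were lower in that fit, which was chosen after seeing the data and in which 60.2% of all tested rows passed. IREB2 and STEAP3 were below 0 in all settings tried.

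**Figure D4:**
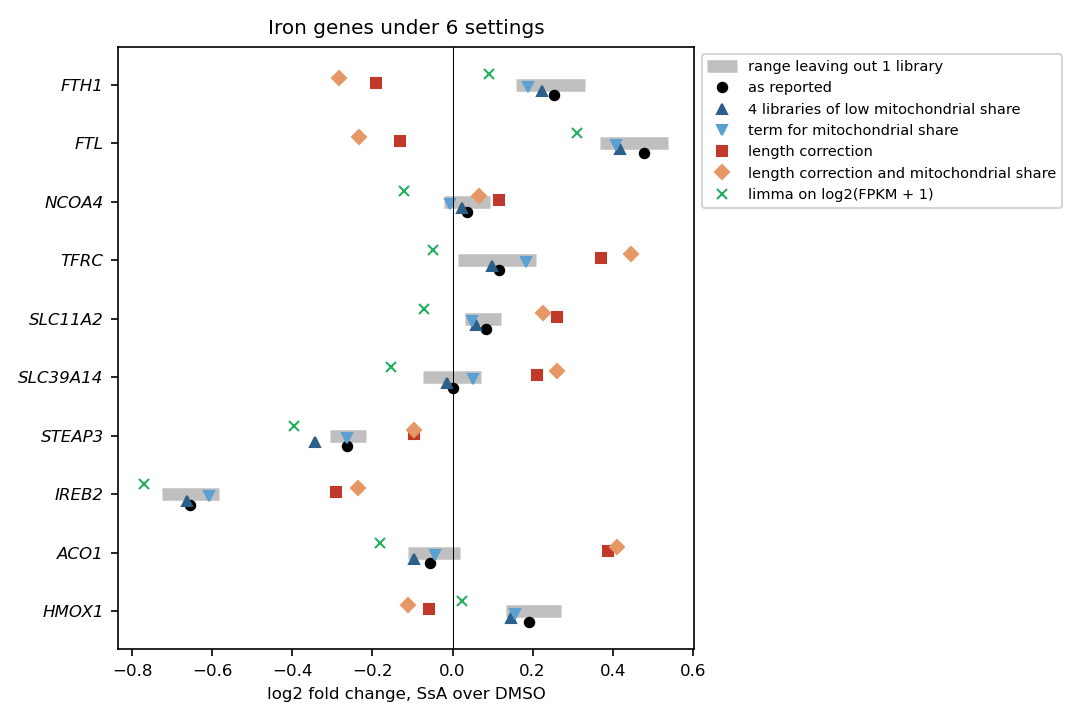
Log2 fold change of SsA over DMSO for each iron gene under 6 settings (symbols), with the range over fits that leave out 1 library (grey bars). IREB2 and STEAP3 stay below 0 under all settings drawn, while FTH1, FTL, ACO1 and HMOX1 change side with the length correction.

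The tested genes whose pattern over the 6 libraries was nearest to FTH1, by Euclidean distance of centred log2 CPM, were TAF9 (0.0353), NSL1 (0.0540) and CALCOCO2 (0.0615), where the median distance of all tested genes was 0.729. For TFRC they were C8orf33 (0.0390), IARS2 (0.0506) and GNB5 (0.0636), where the median was 0.682.

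The wider iron pathway was described through 96 further genes, of which 92 had a row and 78 were tested. Of these, 39 were higher, 11 were lower and 28 did not pass, with a median log2 fold change of 0.25 against 0.03 over all tested rows, of which 25.9% were higher and 27.9% lower. After the length correction 34 were higher and 7 lower, where 19.5% and 15.6% of all tested rows were. On the scale of log2(FPKM + 1) limma called 11 higher and 13 lower (all tested rows 8.08% and 32.4%), and on TPM 0 higher and 10 lower (0.394% and 20.8%), so the split depended on the scaling. The counts of each list below are read against these shares.

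Among genes of mitochondrial iron handling and iron-sulfur cluster assembly 16 of 21 tested were higher and 1 was lower (median 0.50). With the length correction 14 were higher and 0 lower (median 0.40), on log2(FPKM + 1) 6 and 1 (0.29), and on TPM 0 and 1 (0.13). LYRM4, which stabilises the cysteine desulfurase that feeds the cluster, averaged 47.5 ± 1.63 CPM in SsA and 29.1 ± 0.785 CPM in DMSO (SD, n = 3 each; log2 fold change 0.71 ± 0.06 SE, edgeR adjusted p = 2.61e-04). ISCU, the scaffold on which clusters are built, averaged 70.8 ± 2.05 CPM in SsA and 47.6 ± 2.57 CPM in DMSO (0.57 ± 0.07, adjusted p = 6.63e-04). Their longest annotated transcripts, of 7312 nt for LYRM4 and 3685 nt for ISCU, are above the median of tested rows. With the length correction, which used these lengths, they were at 1.14 and 0.67, with adjusted p of 2.03e-04 and 7.45e-04 by edgeR. In DMSO 1, LYRM4 had 2297 counts at 7.10 FPKM and ISCU had 3505 counts at 9.67 FPKM. LYRM4 thus had fewer counts per FPKM, so the length behind the deposited FPKM was shorter for LYRM4 than for ISCU. The corrected value of LYRM4 depends on the length chosen. In the cytosolic machinery that hands clusters to target proteins, 7 of 10 were higher and 1 lower (median 0.34). Corrected for length, 3 were higher and 1 lower (median 0.13), and 0 were higher and 1 lower both on log2(FPKM + 1) (0.14) and on TPM (-0.02). The targeting factor gene CIAO2B was higher by 0.83 (adjusted p = 0.00424) and the electron donor gene NDOR1 fell by 1.18 on the log2 scale (8.96e-04); with the length correction CIAO2B no longer passed (0.12, 0.452) and NDOR1 was at -1.28 (0.00149).

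Of 9 iron chaperones and genes that control IRP2, 5 were higher and 1 lower (median 0.37). Corrected for length, it was 4 and 1 (0.30), on log2(FPKM + 1) 1 and 1 (0.20), and on TPM 0 and 1 (median 0.0013). The lower one was HERC2, a giant ubiquitin ligase that acts on NCOA4, at 55.3 ± 3.78 CPM in SsA and 193 ± 14.0 CPM in DMSO (SD, n = 3 each; -1.80 ± 0.08 SE, edgeR adjusted p = 4.27e-05). GLRX3, a glutaredoxin that carries iron-sulfur clusters in the cytosol, was higher by 0.52 (adjusted p = 6.11e-04). With the length correction HERC2 was at -1.001 (0.00107) and GLRX3 at 0.63 (6.49e-04). Of 18 heme genes 8 were higher and 1 lower (median 0.31). After the length correction 7 were higher and 1 lower (0.21), on log2(FPKM + 1) 2 and 2 (0.12), and on TPM 0 and 1 (-0.05). UROD, a heme synthesis enzyme, averaged 80.6 ± 2.94 CPM in SsA and 51.8 ± 5.45 CPM in DMSO (0.64, adjusted p = 0.00134). LRP1, a receptor that takes up heme bound to hemopexin among many ligands, averaged 49.3 ± 2.70 CPM in SsA and 146 ± 2.91 CPM in DMSO (-1.57, adjusted p = 3.94e-05). Their values with the length correction were 0.39 (0.00806) for UROD and -0.79 (4.76e-04) for LRP1.

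Of 11 transcription regulators of iron genes 1 was higher and 5 were lower (median -0.34), and 2 were higher and 3 lower with the length correction (-0.15). On log2(FPKM + 1) 1 was higher and 6 were lower (-0.43), and on TPM 0 and 4 (-0.68). MTF1, the metal-responsive factor, fell by 1.27 in log2 units (adjusted p = 5.19e-04 by edgeR) and MAFG, a small Maf protein that pairs with NRF2 and BACH1, fell by 0.82 (0.00117). Among 5 other uptake, reductase and ferritin-release genes 2 were higher and 1 lower (median 0.20). Corrected for length, 3 were higher and 0 lower (0.28), on log2(FPKM + 1) 1 and 1 (0.04), and on TPM 0 and 1 (-0.15). CD63, a tetraspanin of vesicles that can carry ferritin out of the cell, was higher by 0.85 (0.00273), and the metalloreductase gene STEAP4 fell by 0.46 (0.00820), which was 0.12 (0.301) with the length correction. CD63 was then at 0.40 (0.0287), MTF1 at -0.79 (0.00340) and MAFG at -0.57 (0.00806). Of 4 tested export and systemic genes 0 were higher and 1 was lower (median 0.06). With the length correction 1 was higher and 1 lower (0.05), and on log2(FPKM + 1) and TPM 0 and 1 (-0.07 and -0.27). FURIN, a protease that cleaves hemojuvelin, fell by 0.40 (0.00252), and HFE, the hemochromatosis gene, was at 0.14 (0.360). HFE passed as higher with the length correction (0.41, 0.0391), where FURIN was at -0.22 (0.0343). The exporter ferroportin (SLC40A1) and hepcidin (HAMP) were at most 0.0109 and 0.0330 FPKM in any library and were not tested.

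**Figure D5:**
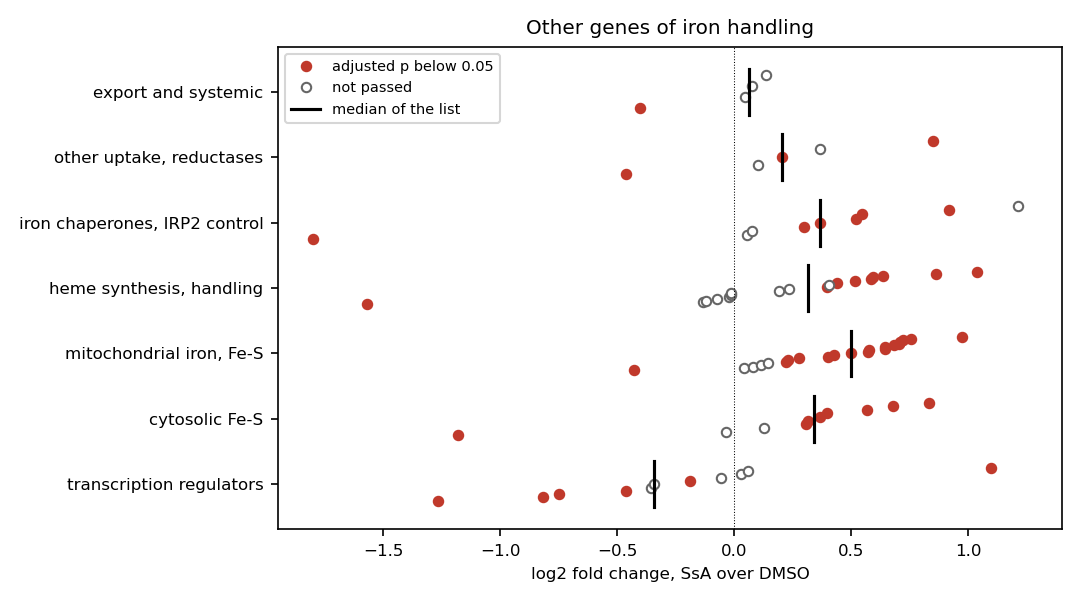
Log2 fold change of SsA over DMSO for 78 other tested genes of iron handling in 7 lists, filled where the edgeR adjusted p was below 0.05, with the median of each list (bar). The mitochondrial iron-sulfur list is mostly to the right of 0 and the transcription regulators mostly to the left.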

How the data were processed

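RNA with poly(A) tails was enriched on oligo(dT) beads and made into dUTP libraries that mark the strand, per the labels' protocols. The authors used cutadapt 1.9, HISAT2 2.0.4 and StringTie 1.3.4d with the build GRCh38, per the submitters' processing notes; no source used here states the counting step, its strand setting or the annotation release. The deposited table holds unnormalised counts as whole numbers, and FPKM, for each gene and library, per the file headers. FPKM had been divided by length and library size by the authors.

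The 11427 rows that reached 1 FPKM in 3 or more of the 6 libraries were tested on their counts with edgeR 4.0.16 in R 4.3.3: TMM scaling, a two-sided quasi-likelihood test and Benjamini-Hochberg adjustment over these rows, with a threshold of 0.05. The SE was taken from the log2 fold change and F. DESeq2 1.42.0 and limma 3.58.1 served as alternatives. The length correction entered each library's trend of log2 CPM on log2 length (longest GENCODE 29 transcript) as offsets, for 11345 rows. Which transcript of a gene was expressed was not examined, so the length used for a gene may not be that of its RNA. The scripts were tested on simulated data, with and without a length trend. Folds of 1.5, 2 and 4 were planted in 67, 67 and 66 of 11345 rows. Calls in all other rows counted as false, although a simulated trend gave those rows a difference too. At a trend of -0.4 such calls made up 95.7% of what the uncorrected fit called. With so few planted rows a high share was fixed by the setup, so it does not give the share in the real data. For the corrected fit, which removes a trend of the simulated form, the share was 7.19%. That fit recovered 50.7% of simulated 1.5-fold changes, against 77.6% uncorrected. At a trend of 0 the false shares were 4.6% uncorrected and 5.14% corrected. The main fit is an uncorrected one. Counts come from reads amplified by PCR, which are not independent molecules.

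The genes, lists and alternatives were chosen with earlier results of these data known. By rule the text names the 10 genes and BEST1, the 2 genes of smallest p in each other list, the 2 ferritin pseudogenes of highest mean count and the 3 nearest patterns for FTH1 and TFRC. STEAP3-AS1, ferroportin, hepcidin and the named markers were added to these after their values were seen. The main fit did not pair libraries by replicate number, and whether the numbers mark paired cultures could not be told.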

Additional observations from a re-analysis of the deposited data

How the results depend on the processing

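Over all tested rows, 2956 genes were higher and 3190 lower. Limma called 923 higher on log2(FPKM + 1), 835 on log2(FPKM + 0.1) and 45 on log2(TPM + 1); a mean FPKM of at least 5 left 1666 higher and 1762 lower, where fewer genes were tested, and the length correction 1769 lower. Of the 10 iron genes, 1 was higher and 2 lower. The count of higher genes was 3 with the length correction, with a term for mitochondrial share and in the 4 libraries of low share, 4 with both corrections, 0 on TPM and 0 to 1 leaving out 1 library; the count of lower genes was 1 (IREB2) without the filter and on TPM, 0 with the length correction and 1 to 2 leaving out 1 library. The 39 higher and 11 lower other iron genes became 11 higher on log2(FPKM + 1), 7 higher on log2(FPKM + 0.1), 0 higher on TPM and 7 lower with the length correction. Among values that passed with or without the change, the sign turned for FTL (-0.13 with the length correction, -0.23 with the mitochondrial term added), FTH1 (-0.28 with both) and ACO1 (0.39 and 0.41). Without passing in either fit, FTH1 was also below 0 with the length correction (-0.19) and on TPM (-0.11), HMOX1 with the length correction (-0.06), with both (-0.11) and on TPM (-0.17), and NCOA4, TFRC, SLC11A2 and SLC39A14 on FPKM, on TPM and with a mean FPKM of at least 5. NCOA4, SLC39A14 and ACO1, all near 0, also turned in fits that left out a library. BEST1 ranged from 3.03 to 5.59 leaving out 1 library and lost its call in 4 of these 6 fits. Apart from smaller sets of genes or libraries, the cause was not tested. The replicate block gave 2074 higher and 2542 lower genes, and FTL at 0.47 (edgeR adjusted p = 0.0444), STEAP3 at -0.26 (0.0459) and IREB2 at -0.66 (0.0114); it ended no call among the iron genes. Same-numbered libraries deviated together for replicate 2 (r = 0.29) but not for replicates 1 (-0.34) and 3 (-0.35). The largest r was that of SsA 1 and DMSO 3 (0.55), the libraries of highest mitochondrial share. The check therefore cannot tell whether the numbers pair cultures. Of the 10, HMOX1 rested on the fewest counts, 997 to 1366 a library.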
